A study of Mus musculus with 5 samples.

Results

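The genes described here make cholesterol from acetyl-CoA, control that synthesis through the transcription factor SREBP2, and move, esterify or export cholesterol in mouse liver. They were chosen by a fixed list of 30 gene symbols, matched through the RefSeq accession of each array probe. A probe was matched for 29 of the 30 genes, among 17016 genes represented on the array, and 28 could be tested among 14915 genes tested. No probe was matched to Idi1, an isomerase of the isoprenoid branch. The only probe of Acat2, a cytosolic thiolase, was marked as an outlier spot by the scanner software on all 5 arrays and was left out.

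RNA came from 5 liver samples, called livers 1 to 5, of male C57BL/6N mice. All had received an ethanol diet over 8 weeks followed by 3 binges of ethanol at 5 g/kg, and their age is not given in the labels. Liver cDNA carried the red dye Cy5 on every array, and the green dye Cy3 carried 1 purchased RNA (Ambion mouse assorted total RNA), whose tissue the labels give as liver and whose strain they give as C57BL/6N. Every value below is therefore a log2 ratio of an ethanol-treated liver over that reference RNA, where -1 means a 2-fold lower level in liver. No control diet was analysed here, the dyes were not exchanged on any array, and no ratio measures the effect of ethanol. The labels do not say that the 5 samples are separate animals, so a p-value here reflects sample-to-sample spread that may be technical, and leaves out the spread of the reference. In whole liver RNA, fewer cells of a type and less RNA per cell cannot be told apart.

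In hepatocytes the synthetic pathway condenses acetyl units into mevalonate, builds isoprenoids from it, joins them into squalene and closes that chain into sterols. SREBP2 is held in the endoplasmic reticulum by Scap and the Insig proteins while sterols are plentiful. When sterols fall, it moves to the Golgi, is cut by a pair of proteases and switches on nearly every enzyme of the pathway, together with Insig1. Excess cholesterol is sensed through its oxidised forms by liver X receptors, which induce exporters such as the Abcg5 and Abcg8 half-transporters that pass sterols into bile.

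The promoters of 4 genes are printed because their genes have the largest spread between livers among synthesis enzymes with a promoter window (Mvd, Hmgcs1) or the lowest ratios to the reference (Insig1, Abcg8). Each runs from 250 bases before to 50 bases after the transcription start annotated by RefSeq on GRCm38.p6, read 5′ to 3′ on the strand of the gene. The windows are chr13:119690101-119690400 on the plus strand for Hmgcs1, chr8:122443373-122443672 on the minus strand for Mvd, chr5:28071162-28071461 on the plus strand for Insig1 and chr17:84682871-84683170 on the plus strand for Abcg8. Capitals mark matches on either strand to a sterol regulatory element (TCACNCCAC), a CCAAT box (CCAAT), a GC box (GGGCGG) or an E-box (CACGTG).
Hmgcs1: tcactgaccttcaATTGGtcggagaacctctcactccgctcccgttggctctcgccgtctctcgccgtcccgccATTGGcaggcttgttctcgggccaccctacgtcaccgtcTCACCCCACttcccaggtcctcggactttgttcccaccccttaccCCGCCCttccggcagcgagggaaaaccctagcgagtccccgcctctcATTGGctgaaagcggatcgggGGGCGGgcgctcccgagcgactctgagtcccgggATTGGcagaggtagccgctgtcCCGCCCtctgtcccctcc
Mvd: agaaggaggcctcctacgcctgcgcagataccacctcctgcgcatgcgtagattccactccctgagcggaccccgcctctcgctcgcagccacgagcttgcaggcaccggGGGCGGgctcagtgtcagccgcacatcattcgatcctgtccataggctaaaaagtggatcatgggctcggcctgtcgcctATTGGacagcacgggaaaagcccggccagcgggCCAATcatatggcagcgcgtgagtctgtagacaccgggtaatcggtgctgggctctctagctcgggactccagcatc
Insig1: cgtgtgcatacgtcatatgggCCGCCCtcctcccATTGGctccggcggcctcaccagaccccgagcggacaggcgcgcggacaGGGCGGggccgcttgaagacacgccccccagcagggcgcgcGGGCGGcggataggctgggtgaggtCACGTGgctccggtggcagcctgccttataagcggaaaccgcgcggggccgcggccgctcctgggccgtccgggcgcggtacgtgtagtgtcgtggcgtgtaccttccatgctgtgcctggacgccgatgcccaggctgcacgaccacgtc
Abcg8: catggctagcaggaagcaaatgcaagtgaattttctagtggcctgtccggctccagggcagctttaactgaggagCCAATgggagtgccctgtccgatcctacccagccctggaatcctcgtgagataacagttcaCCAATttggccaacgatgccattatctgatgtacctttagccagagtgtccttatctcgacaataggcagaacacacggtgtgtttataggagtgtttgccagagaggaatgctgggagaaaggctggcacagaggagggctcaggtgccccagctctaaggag

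RefSeq promoter windows were held for 24 of the 30 genes and not for Sqle, Fdps, Fdft1, Npc1, Soat2 and Stard4. The sterol regulatory element as spelled was found in 1 of the 24, Hmgcs1, where it starts at position -137 from the transcription start, against 1.44% of all 27025 genes with a window. A CCAAT box, the site of the SREBP partner NF-Y, was found in 22 of 24 genes (91.7%), against 41.1% of all genes. A GC box, the site of Sp1, was found in 20 of 24 (83.3%), against 38.2% of all. An E-box was found in 5 of 24 (20.8%), against 8.09% of all, and that of Insig1 starts at position -101. Among the 16 synthesis enzymes with a window, 15 hold a CCAAT box and 14 a GC box. No match to one of these motifs overlapped a match to another. The windows of Abcg5 and Abcg8, which lie head to head, share 209 bases, so these are not separate sequences. A match is a description of letters in the window and not a measured binding site.

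Most mean ratios of the cholesterol genes were below 0, but few passed the test against the spread between livers. The mean ratio was below 0 in 24 of the 28 genes tested, against 53.2% of all genes, and the median over the 28 was -0.23 against -0.02 over all genes. By limma with Benjamini-Hochberg adjustment over all 14915 genes, 5 of the 28 were below the reference at an adjusted p under 0.05, where the background is 12.8% of genes. They were Insig1, Abcg8, Hsd17b7, Fdft1 and Tm7sf2. Above the reference was 1 gene of the 28, Ggps1, where the background is 14.2%. Requiring a 2-fold difference as well left Insig1 and Abcg8 below, 2 of 28 against a background of 0.416%, and none above, against 0.858%. Over all genes that rule called 62 below and 128 above, 77 below and 96 above with median centring in place of loess normalization, 157 and 318 on Agilent's processed signals, and 155 and 324 in the deposited ratios. Fewer genes were below without liver 2, 3, 4 or 5 (3, 3, 2 and 3 genes, where the backgrounds are 9.94%, 9.26%, 6.87% and 9.23%) and more without liver 1 (9 of 26, where the background is 9.52%). The 9 were Fdft1, Fdps, Hmgcs1, Hsd17b7, Insig1, Lss, Msmo1, Pmvk and Tm7sf2. The count above fell to 0 without liver 4, and the 2-fold count to 1 without liver 1, 2, 4 or 5.

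**Figure D1:**
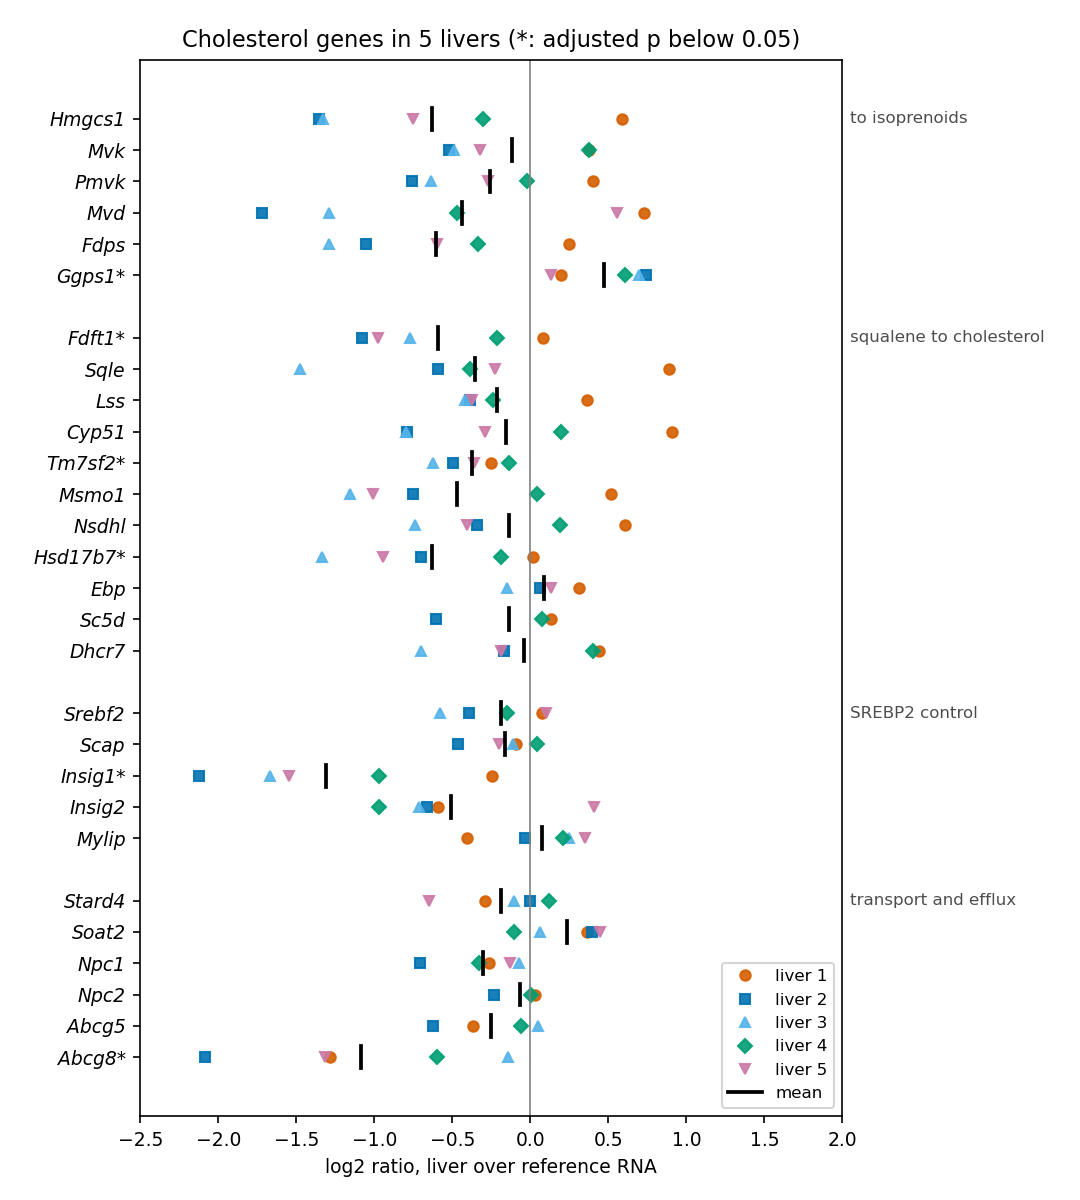
Log2 ratio of liver over reference RNA (x axis) for the 28 cholesterol genes tested, grouped by role, with 1 symbol per liver, a black bar at the mean, and asterisks at genes with a limma adjusted p under 0.05. Liver 1 lies to the right of livers 2 and 3 for most synthesis enzymes, while Insig1 lies left of 0 in every liver, from -2.12 to -0.24.

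Most synthesis enzymes were highest in liver 1 and low in livers 2 and 3. The median log2 ratio of the 17 enzymes tested was 0.38 in liver 1, -0.60 in liver 2, -0.75 in liver 3, -0.08 in liver 4 and -0.34 in liver 5. Liver 1 thus stood above the reference, livers 2 and 3 well below it and liver 4 close to it, while the median of all genes lay between -0.02 and 0.00 in each liver. In liver 1 only 1 of the 17 enzymes, Tm7sf2, had a ratio below 0, in contrast to 15 in liver 2, 15 in liver 3, 9 in liver 4 and 13 in liver 5. Outlier spots left Ebp without a value in liver 4 and Sc5d without one in livers 3 and 5. Of the 15 enzymes with a value in every liver, 12 were highest in liver 1 (18.1% of all genes were), 9 were lowest in liver 3 (17.8% of all genes), and 8 were both (5.44% of all genes). Liver 1 exceeded liver 3 by more than 1 on the log2 scale for 10 of the enzymes, against 1.43% of all genes. These orders are descriptions without a test, and the enzymes share the same 5 arrays.

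**Figure D2:**
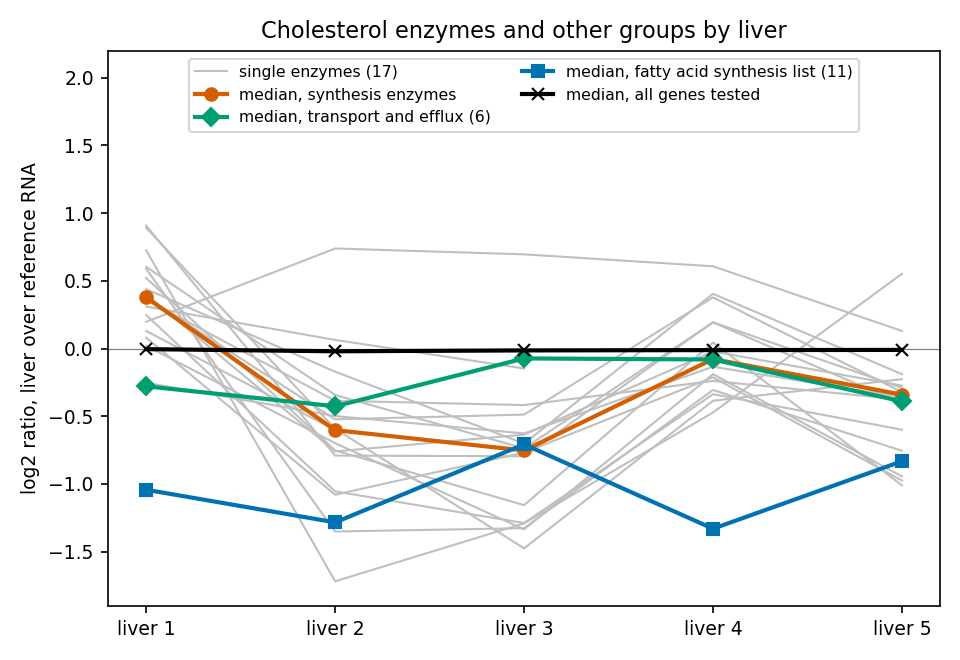
Log2 ratio of liver over reference RNA (y axis) in livers 1 to 5 (x axis) for each of 17 synthesis enzymes (grey lines, which only join values of 1 gene) and as medians of 4 gene groups. Each median is over the genes with a value in that liver. The enzyme median runs from 0.38 in liver 1 to -0.75 in liver 3, and the fatty acid synthesis median stays at or below -0.71 in every liver.

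The first steps lead from acetyl-CoA to isoprenoids. Hmgcs1, the synthase that makes HMG-CoA and whose promoter holds the sterol regulatory element shown above, had log2 ratios of 0.59, -1.35, -1.33, -0.31 and -0.76 in livers 1 to 5. Only liver 1 lay above 0, and the mean was -0.63 ± 0.81 (SD, n = 5; limma adjusted p = 0.145). Without liver 1, the mean was -0.94 and passed the test (adjusted p = 0.0113), while over the alternatives run the adjusted p went from 0.0113 to 0.290. The background-subtracted signal of Hmgcs1 in the liver channel was 1468 in liver 1 and between 561 and 897 in the other livers, while the reference channel read between 966 and 1603.

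Mvd, the decarboxylase that yields isopentenyl diphosphate, varied most of all 28 genes. Its log2 ratios were 0.73, -1.72, -1.29, -0.47 and 0.55, so that livers 1 and 5 lay above the reference and livers 2, 3 and 4 below. The mean was -0.44 ± 1.08 (SD, n = 5; limma adjusted p = 0.437), and its SD stood at percentile 99.7 among all genes tested. In the liver channel Mvd read 941, 156, 293, 440 and 940, against 552, 622, 661, 775 and 858 in the reference channel of the same arrays. The kinases before it moved less. Mvk and Pmvk, which phosphorylate mevalonate in turn, had means of -0.12 ± 0.46 and -0.26 ± 0.47 (SD, n = 5; limma adjusted p = 0.606 and 0.258).

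Fdps, which makes farnesyl diphosphate, had ratios of 0.25, -1.06, -1.29, -0.34 and -0.60, high in liver 1 and low in livers 2 and 3. Its mean was -0.61 ± 0.61 (SD, n = 5; limma adjusted p = 0.0713), and it passed the test without liver 1 (-0.82, adjusted p = 0.00977) and with median centring (-0.76, 0.0109), within a range of 0.00977 to 0.151 over the alternatives. Ggps1, which lengthens that product towards protein prenylation and away from sterols, went the other way. It had ratios of 0.20, 0.74, 0.70, 0.61 and 0.13, above 0 in all 5 livers, with livers 1 and 5 lowest. Its mean of 0.47 ± 0.29 (SD, n = 5) passed the test (limma adjusted p = 0.0153). A dimmer probe of Ggps1 had a mean of -0.13, and the call was lost with the mean of both probes (adjusted p = 0.0898) and without liver 4 (0.0572), within a range of 0.00658 to 0.0898.

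From squalene onwards, 3 of the 11 genes tested were below the reference (background 12.8%) and the median ratio was -0.21. Fdft1, the squalene synthase that commits isoprenoids to sterols, had ratios of 0.08, -1.08, -0.77, -0.21 and -0.98. Liver 1 was at the level of the reference and the other livers below it, with a mean of -0.59 ± 0.50 (SD, n = 5; limma adjusted p = 0.0369). A second, dimmer Fdft1 probe had a mean of 0.08. The call was lost with the mean of both probes (adjusted p = 0.0931), with arrays scaled to each other (0.0509) and without liver 2, 3, 4 or 5 (0.0904, 0.0970, 0.0501 and 0.104), within a range of 0.00923 to 0.104.

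Sqle, the epoxidase that adds the oxygen on which ring closure starts, had ratios of 0.89, -0.59, -1.48, -0.39 and -0.23. Liver 1 stood far above and liver 3 far below the rest, and the mean was -0.36 ± 0.85 (SD, n = 5; limma adjusted p = 0.409). Its liver signal was 2875 in liver 1 and 810 in liver 3, against 1494 and 2001 in the reference channel. Lss, which closes the ring, was at 0.36 in liver 1 and between -0.42 and -0.24 in the other livers, with a mean of -0.21 ± 0.33 (SD, n = 5; limma adjusted p = 0.210), and was not called. It was below the reference without liver 1 (-0.36, limma adjusted p = 0.0230), on processed signals (0.0466) and in the deposited ratios (0.0486), within a range of 0.0230 to 0.427.

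The following enzymes strip methyl groups from lanosterol and rearrange its double bonds. Cyp51, the lanosterol demethylase, had ratios of 0.91, -0.79, -0.80, 0.19 and -0.29, and its mean of -0.16 ± 0.72 (SD, n = 5) was not distinguishable from 0 (limma adjusted p = 0.682). The values of Msmo1, a sterol methyl oxidase, were 0.52, -0.75, -1.16, 0.04 and -1.01 (mean -0.47 ± 0.72, SD, n = 5; limma adjusted p = 0.213). Nsdhl, a sterol dehydrogenase, gave 0.60, -0.34, -0.74, 0.19 and -0.40 (mean -0.14 ± 0.53, SD, n = 5; limma adjusted p = 0.601). In these 3 genes liver 1 was highest, liver 4 next and liver 3 lowest.

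Hsd17b7, the ketosteroid reductase that acts with Nsdhl and Msmo1, had ratios of 0.02, -0.70, -1.34, -0.19 and -0.95. The livers kept the order seen for Msmo1 at the top and bottom, and the mean of -0.63 ± 0.55 (SD, n = 5) was below the reference (limma adjusted p = 0.0437). That call was lost with the mean of both probes (0.0841), with arrays scaled to each other (0.0517) and without liver 2, 3, 4 or 5 (0.0821, 0.0825, 0.0509 and 0.123), within a range of 0.00672 to 0.123. Tm7sf2, a sterol reductase acting on the double bond left after demethylation, was below the reference in every liver, at -0.25, -0.50, -0.63, -0.13 and -0.36. Its mean of -0.37 ± 0.19 (SD, n = 5; limma adjusted p = 0.0151) passed the test under all 14 alternatives (0.00549 to 0.0474).

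In the last steps the mean ratios were not distinguishable from 0, while single livers differed. Dhcr7, which performs the final reduction to cholesterol, had ratios of 0.44, -0.17, -0.70, 0.40 and -0.19 (mean -0.04 ± 0.48, SD, n = 5; limma adjusted p = 0.859), again with liver 1 highest and liver 3 lowest. Ebp, a sterol isomerase, had a mean of 0.09 ± 0.19 (SD, n = 4), and Sc5d, a sterol desaturase, one of -0.13 ± 0.41 (SD, n = 3), each with outlier spots left out on the other arrays.

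The control genes of SREBP2 did not share 1 order of livers. Srebf2, which encodes SREBP2, had ratios of 0.08, -0.39, -0.58, -0.15 and 0.10 (mean -0.19 ± 0.30, SD, n = 5; limma adjusted p = 0.237). A dimmer Srebf2 probe had a mean of 0.28, so the sign of its ratio depends on the probe. Scap, the sterol sensor that escorts SREBP2, had ratios of -0.09, -0.46, -0.11, 0.04 and -0.20 (mean -0.17 ± 0.19, SD, n = 5; limma adjusted p = 0.174), within a narrower range.

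Insig1, the retention protein that is itself an SREBP2 target, was the lowest of the 28 genes. Its log2 ratios were -0.24, -2.12, -1.67, -0.97 and -1.55, all below 0, with liver 1 nearest the reference and liver 2 farthest from it. In the liver channel it read 1553, 580, 1092, 1638 and 977, against 1828, 2787, 3030, 3989 and 4225 in the reference channel. The mean of -1.31 ± 0.72 (SD, n = 5), or 2.48-fold lower, passed the test (limma adjusted p = 0.0132), and did so under all 14 alternatives (0.00155 to 0.0392). A second Insig1 probe, dimmer, had a mean of -0.70, and the mean of both probes stayed just past 2-fold lower.

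Insig2, the related retention protein, had ratios of -0.59, -0.66, -0.71, -0.97 and 0.41. Livers 1 to 4 lay close together below the reference and liver 5 above it, so that the mean of -0.51 ± 0.53 (SD, n = 5) did not pass the test (limma adjusted p = 0.0739). It passed without liver 5 (-0.74 ± 0.17, SD, n = 4; adjusted p = 0.00440). With all livers it passed on Agilent's processed signals (0.0323), in the deposited ratios (0.0325) and with median centring (0.000846), within a range of 0.000846 to 0.201 over the alternatives. A brighter Insig2 probe was marked as an outlier on all 5 arrays and was left out. Mylip, a ubiquitin ligase that removes lipoprotein receptors, had a mean of 0.07 ± 0.30 (SD, n = 5; limma adjusted p = 0.640), between -0.41 in liver 1 and 0.35 in liver 5.

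On their brightest probes, transport, esterification and export genes did not share 1 order of livers. The 6 genes had a median ratio of -0.28, -0.43, -0.07, -0.08 and -0.39 in livers 1 to 5. These medians do not all cover the same genes, because Npc2 had no value in livers 3 and 5 and Abcg5 none in liver 5. None of the 4 with a value in every liver was highest in liver 1, where 18.1% of all genes were, so that count is too small to set them apart. Abcg8, which forms the sterol exporter with Abcg5, had log2 ratios of -1.29, -2.09, -0.14, -0.60 and -1.32. It was below 0 in every liver, lowest in liver 2 and close to the reference in liver 3, and its liver signal was 261, 199, 1277, 704 and 395, against 668, 1009, 1278, 1320 and 1608 in the reference channel. Its mean of -1.09 ± 0.75 (SD, n = 5), or 2.12-fold lower, passed the test (limma adjusted p = 0.0260).

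The Abcg8 result rested on few livers. The call was lost without liver 1, 4 or 5 (limma adjusted p = 0.0975, 0.0511 and 0.0690), within a range of 0.0103 to 0.0975, and the mean was less than 2-fold from the reference without liver 2 (-0.84) and as the mean of both probes (-0.84). Abcg5 had ratios of -0.37, -0.62, 0.05 and -0.06 in livers 1 to 4, with the liver 5 spot left out as an outlier (mean -0.25 ± 0.30, SD, n = 4; limma adjusted p = 0.155). Both half-transporters were lowest in liver 2 and highest in liver 3.

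Of the other carriers, Npc1, the lysosomal membrane protein that releases cholesterol from endocytosed lipoproteins, had ratios from -0.71 in liver 2 to -0.07 in liver 3 (mean -0.30 ± 0.25, SD, n = 5; limma adjusted p = 0.0554). Its soluble partner Npc2 had a mean of -0.07 ± 0.14 (SD, n = 3). Stard4, a cytosolic sterol carrier, had a mean of -0.19 ± 0.30 (SD, n = 5; limma adjusted p = 0.235). Its order of livers depended on the probe. The brightest probe was at -0.29 in liver 1 and -0.11 in liver 3. Its dimmer probes were higher in liver 1 (-0.01 and 0.10) than in liver 3 (-0.70 and -0.54), as most enzymes were. Soat2, which esterifies cholesterol for storage and secretion, had a mean of 0.23 ± 0.24 (SD, n = 5; limma adjusted p = 0.109).

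The spread between livers was then compared with that of all genes, not matched for brightness, and by an F test with a prior that depends on brightness. The SD over livers had a median of 0.46 over the 28 genes and 0.18 over all genes. It was above the 95th percentile of all genes for 13 of the 28, and for 10 of the 17 enzymes. The 4 largest SDs belonged to Mvd (1.08), Sqle (0.85), Hmgcs1 (0.81) and Abcg8 (0.75). Spots of 1 probe printed 10 times on an array had a median SD of 0.09 (156 probes). An F test of each variance against the intensity-dependent prior variance of limma gave 12 of the 28 genes an unadjusted p under 0.05 (background 5.25% of 13201 genes). Without liver 1 it was 6 of 26, where the share of all genes was not counted. After Benjamini-Hochberg adjustment it called 0 of the 28 and 0 of all genes. The prior was fitted to these same genes with 4.28 degrees of freedom, so the test can call few genes. Even Mvd had an adjusted p of 0.709 in this F test, and the 0 does not show that the spread was ordinary. An alternative added after seeing the data, which takes the prior variance as known, called 15 of the 28 (background 10.7%).

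**Figure D3:**
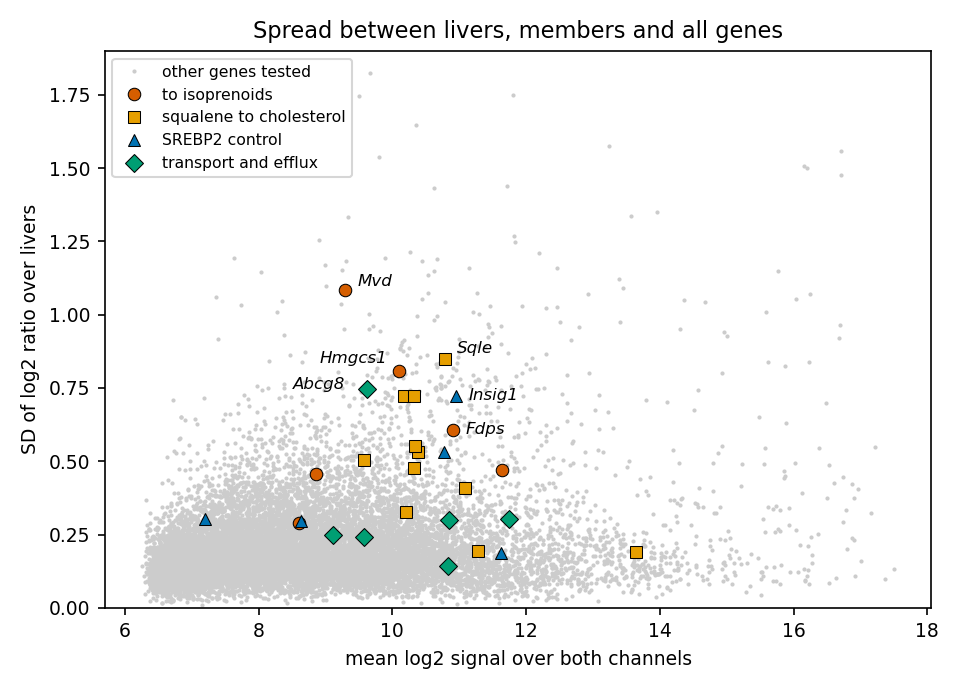
SD of the log2 ratio over the livers (y axis) against mean log2 signal over both channels (x axis), for all genes tested (grey) and the 28 cholesterol genes by role. Mvd at 1.08, Sqle at 0.85, Hmgcs1 at 0.81 and Abcg8 at 0.75 lie near the top of the genes of like brightness.

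Other probes of the same genes were read for the same livers. For 15 of the 28 genes the array held more than 1 tested probe, 18 other probes in all. Their mean had the sign of the brightest probe in 12 of 18 cases, and the largest difference between means was 0.67 (Fdft1). Of the 12 other probes for enzymes, 12 were higher in liver 1 than in liver 3 (48.6% of all genes were) and 9 were highest in liver 1 (18.1% of all genes). For Ggps1 this went against the brightest probe. Liver 1 minus liver 3 was 0.11 on its other probe and -0.50 on the brightest. These probes were hybridised on the same arrays to the same RNA, so they check the probe and not the liver.

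**Figure D4:**
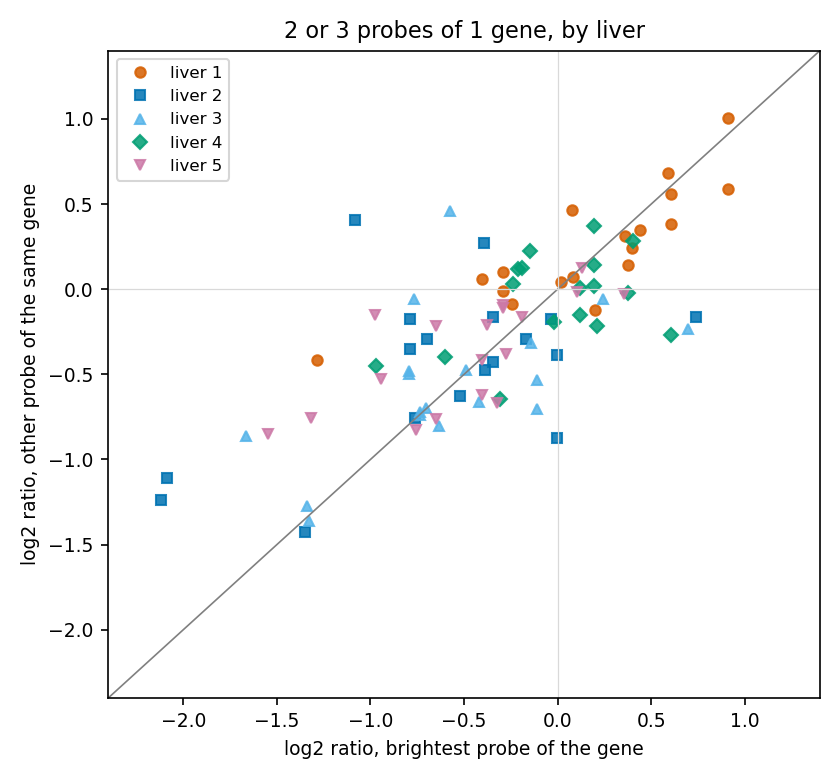
Log2 ratio of another probe of a gene (y axis) against that of the brightest probe (x axis), 1 point per probe and liver, coloured by liver, for 18 other probes of 15 cholesterol genes, with a line of equality. Points of liver 1 lie mostly at the upper right and those of livers 2 and 3 mostly at the lower left, while the lowest brightest-probe values, of Insig1 and Abcg8, sit above the line.

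Lists of neighbouring pathways had other liver medians. In the fatty acid synthesis list, 10 of 11 genes tested were below the reference (background 12.8%), with a median ratio of -1.11 and liver medians of -1.04, -1.28, -0.71, -1.33 and -0.83. Liver 1 was in the middle of the 5 livers there and liver 3 the highest. The liver medians do not all cover the same genes. Fads2 had no value in livers 1 and 5, Mlxipl none in liver 4 and Elovl6 none in liver 5. The 2 lowest were Pklr, the liver pyruvate kinase, at -2.09 ± 0.97 (SD, n = 5; limma adjusted p = 0.00862), and Me1, the malic enzyme that supplies NADPH, at -1.95 ± 0.49 (SD, n = 5; limma adjusted p = 0.000571).

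Among liver X receptors and their targets, 4 of 11 genes tested were below the reference (background 12.8%) and none above, with a median of -0.24. This list overlaps others, so its count is not separate from theirs. Srebf1 is also in the fatty acid synthesis list, and Abcg8, Abcg5 and Mylip are among the cholesterol genes above. Besides Abcg8, Pltp, the phospholipid transfer protein, was at -1.71 ± 0.66 (SD, n = 5; limma adjusted p = 0.00389). Srebf1, which encodes SREBP1, was at -1.31 ± 0.75 (SD, n = 5; limma adjusted p = 0.0147), and its call was lost without liver 1 or 4 (0.0642 and 0.0527), within a range of 0.00114 to 0.0642. Without liver 1 or without liver 4 the list had 2 genes below. The fourth was Lpcat3, a phospholipid remodelling enzyme.

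The list of SREBP cleavage and sterol-regulated degradation had 1 of 15 genes below and 2 above the reference (backgrounds 12.8% and 14.2%), and a median of 0.05. Mbtps2, the second protease that frees SREBP from the membrane, was the highest, at 0.97 ± 0.31 (SD, n = 5; limma adjusted p = 0.00132), between 0.57 in liver 5 and 1.25 in liver 2, on its only tested probe. Erlin2, which helps Insig-dependent degradation, was at 0.45 ± 0.41 (SD, n = 5; limma adjusted p = 0.0451), but its 2 other probes had means of -0.15 and -0.12, and its call was lost without liver 1, 2, 4 or 5 (0.104, 0.105, 0.112 and 0.0747), on processed signals (0.0733), in the deposited ratios (0.0753) and as the mean of probes (0.514), within a range of 0.0175 to 0.514. Nfyc, a subunit of the CCAAT-box factor NF-Y, was below, at -0.49 ± 0.26 (SD, n = 5; limma adjusted p = 0.0105). The other NF-Y subunits in the list, Nfya at 0.07 and Nfyb at 0.05, were not called (limma adjusted p = 0.534 and 0.736).

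Of the genes for cholesterol storage, oxidation and lysosomal handling, 2 of 17 were below and 1 above (backgrounds 12.8% and 14.2%), with a median of -0.16. Cyp7a1, which starts the classical route to bile acids, was at -1.30 ± 0.71 (SD, n = 4; limma adjusted p = 0.0186), with the liver 3 spot left out as an outlier. That call was lost without liver 5 (0.0591), which left 1 gene of the list below, and with outlier spots kept (-0.99, 0.0634), within a range of 0.00209 to 0.0634. Lipa, the lysosomal acid lipase, was at -0.64 ± 0.32 (SD, n = 5; limma adjusted p = 0.00605). Cyp39a1, an oxysterol hydroxylase, was above, at 0.55 ± 0.39 (SD, n = 5; limma adjusted p = 0.0186), and lost its call under median centring (0.0582) and without liver 4 (0.0660), within a range of 0.0143 to 0.0660.

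Facts of the arrays bear on all these values. The liver channel was dimmest for liver 1 (median background-subtracted signal 78.4) and brightest for liver 3 (177), and the reference channel ran from 75.5 to 151. Liver 1 and liver 3, the ends of the enzyme order, were thus also the ends of liver-channel brightness. The reference channel was also dimmest on the array of liver 1 (75.5). It was brightest on that of liver 5 (151) and in the middle on that of liver 3 (121). Between 77.3% and 81.2% of spots were well above background in the liver channel. Log2 ratios of pairs of arrays had an r of 0.39 to 0.75 across genes, which are not independent replicates. Hepatocyte markers were bright in both channels (8 of 8 above background on all arrays, median signal 55419 in liver and 55333 in the reference), with liver medians of 0.17, 0.50, 0.31, 0.61 and 0.09. Of these 8, 3 were above the reference, Ahsg at 1.72, Alb at 1.15 and Apoa1 at 0.94, and 1 was below, Ass1 at -0.58 (backgrounds 14.2% above and 12.8% below). Below the reference were 5 of 7 markers of Kupffer cells and macrophages (median -0.34), 4 of 8 of sinusoidal endothelium (-0.30), 3 of 6 of bile duct cells (-0.19), 2 of 4 of red blood cells (-0.74), 1 of 8 of stellate cells and matrix (-0.11), 0 of 4 of neutrophils (-0.03) and 0 of 6 of lymphocytes (-0.08), against the background of 12.8%. Above it were 2 of the 6 lymphocyte markers, Cd3e at 0.45 and Cd79a at 0.57, and none in the other 6 lists just named (background 14.2%). The summed liver-channel signal of red blood cell markers ranged from 2609 to 9617, against 8958 to 13092 in the reference, and their median ratio was -1.35 in liver 1 and between -0.53 and -0.43 in livers 2 to 5. The part of array brightness and of cell makeup in the order of the livers was not tested.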

How the data were processed

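The authors deposited scanner files holding the median pixel intensity of each spot and its local background in both channels, which per the file headers come from Agilent Feature Extraction 11.5.1.1 and are not normalized. A deposited table gives log2 ratios of 40599 probes, of which 99.7% lay within 0.001 of the log2 ratio of the processed signals in the scanner files, so its scale and direction are liver over reference. Its column medians lay between -0.10 and -0.03. Median signals were corrected with normexp (offset 50) and each array of 45018 spots was normalized by loess, with control and outlier spots (2.32% to 4.05% of spots) at weight 0 and then left out, in limma 3.58.1 under R 4.3.3. Gene names came from the RefSeq accessions of the probes (24375 of 41174 matched a gene), and spots of 1 probe were averaged. Testing required 3 or more values, and 3 or more arrays on which at least 1 channel was well above background, and the brightest tested probe stood for the gene.

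Mean ratios were tested against 0 by limma (intercept only, eBayes with trend and robust prior, two-sided). Liver samples form 1 group of 5, and the number of arrays limits the precision. The rule for full values took the genes called, the 4 largest SDs, Srebf2, Scap, Insig1 and Insig2, and in each other list up to 2 lowest and 2 highest called genes. Values by liver of Fdps, Cyp51, Msmo1, Nsdhl, Dhcr7 and Abcg5 were added after they were seen. The members, the lists and the tests were chosen with earlier results of these data known. Alternatives were processed signals, the deposited ratios, median centring, scaling between arrays, other filters on dim probes, the mean of probes, outlier spots kept, another prior and each liver left out.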

Additional observations from a re-analysis of the deposited data

Results flagged for a closer look

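Of 26 cholesterol genes with values in at least 4 livers, 2 had 1 liver far from the others by Dixon's criterion at the 95% level, which chance meets in about 1 in 20 groups. The Lss log2 ratio in liver 1 was 0.36, and the nearest other liver was at -0.24, a gap of 0.771 of the whole range. The Insig2 log2 ratio in liver 5 was 0.41, and the nearest other liver was at -0.59, a gap of 0.726 of the range.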

How the results depend on the processing

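The median ratio of the enzymes stayed below 0 under every alternative run, between -0.42 and -0.15 with 1 liver left out, and no called result changed its sign. Uncalled means near 0 did change sign for Cyp51 (processed signals 0.02, and near 0 without liver 2 or 3), Ebp (processed signals -0.02, median centring -0.06), Mylip (processed signals and deposited ratios -0.06, and near 0 for the mean of probes), Srebf2 (mean of probes 0.05), and Nsdhl and Dhcr7 (without liver 3, 0.01 and 0.12). The Cyp51 value on processed signals had n = 4, because another of its probes was then the brightest. Deposited ratios, read on the main Cyp51 probe, gave -0.18 (n = 5). Liver 1 had the highest enzyme median in each setting with all livers, from 0.32 to 0.42, and liver 3 the lowest, from -0.81 to -0.69, except with median centring, where liver 5 was at -0.84 and liver 3 at -0.73. Insig1 and Tm7sf2 were below the reference in every setting. Genes below the reference numbered 5, with 8 under median centring (background 13.9%), 3 with the mean of probes (12.4%), 7 each from processed signals (15.2%), deposited ratios (15.4%) and outlier spots kept (13.8%), 4 with arrays scaled (13%) and from 2 to 9 with 1 liver left out. Genes above numbered 1, with 0 for the mean of probes and from 0 to 1 with 1 liver left out, and genes below by 2-fold numbered 2, with 1 for the mean of probes and from 1 to 2 with 1 liver left out. The variance test called 0 genes, 1 under median centring and 15 with the prior variance taken as known (background 10.7%), and unadjusted calls ranged from 6 to 13 with 1 liver left out. For this test the share of all genes was not counted under median centring or with 1 liver left out. The liver X receptor list had 4 genes below, from 2 to 4 with 1 liver left out. The list of cholesterol storage and oxidation had 2, with 4 from processed signals, 6 from the deposited ratios, 4 under median centring, 4 without trend and robust prior and from 1 to 3 with 1 liver left out. Each of the 5 arrays was on its own slide, so slide could not be used as a block. Acat2 was at -0.44 (limma adjusted p = 0.00938) with outlier spots kept. No paired analysis was possible because the samples form 1 group. The causes of these differences were not tested. With 5 arrays, no dye exchange and 1 reference RNA, small ratios are not resolved from the spread between livers or from dye effects of a probe.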

Other observations

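In liver 1, where the synthesis enzymes were highest, a pair of genes that were not called had their lowest ratios, and both were chosen after their values were seen. Ces1d, a carboxylesterase that mobilises stored lipid esters, had log2 ratios of -2.93, -0.98, -0.04, -0.67 and -0.78 in livers 1 to 5 (mean -1.08 ± 1.09, SD, n = 5; limma adjusted p = 0.0884). Cyp8b1, the sterol hydroxylase that makes cholic acid, was at -2.83, -1.94, -0.55 and -0.40 in livers 1 to 4, with the liver 5 spot left out as an outlier (mean -1.43 ± 1.16, SD, n = 4; limma adjusted p = 0.0673). For both genes livers 1 and 2 were lowest, while the enzymes were high in liver 1 and low in liver 2. Other genes of their list, cholesterol storage and oxidation, went the other way. Of its 12 genes with a value in every liver, 3 were highest in liver 1 (18.1% of all genes were). Among these were Cyp7b1, at 0.12 in liver 1, and Cyp39a1, at 1.01. Abca1, a cholesterol exporter induced by liver X receptors, had ratios of 0.60, 1.68, -0.45, -0.36 and 0.40 (mean 0.37 ± 0.86, SD, n = 5; limma adjusted p = 0.395), highest in liver 2, where Abcg8 was lowest.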
